A study of Mus musculus with 15 samples.

Results

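The genes described here are 5 named for the tripartite motif (TRIM) family, Trim14, Trim21, Trim25, Trim26 and Trim56, together with Pml and Sp100. Both Pml and Sp100 encode proteins of PML nuclear bodies. All 7 genes were taken by name, with earlier results of these data known, from 24015 genes counted in each of 15 RNA-seq libraries. Each of them passed the filter on low counts. Trim25 passed through its KO libraries alone, since it was left out of every fit on WT groups only. The cells were MEFs of c57bl/6 mice, that is fibroblasts put into culture from embryonic tissue, labelled NSD2 KO (Nsd2 -/-) or WT (Nsd2 +/+). NSD2 is a histone methyltransferase. Pretreated cells had received mouse recombinant interferon beta for 3 h and then been kept without it for 24 h after a wash, whereas naive cells had no earlier interferon. Both kinds were sampled without further interferon (0 h) or after 2 h with 100 units per ml. This gave the groups KO pretreated 2 h, KO pretreated 0 h, KO naive 2 h, KO naive 0 h, WT pretreated 2 h, WT pretreated 0 h, WT naive 2 h and WT naive 0 h, each of 2 libraries except KO naive 2 h, which had 1. The labels name no separate cultures, embryos or lines, so the p-values reflect only how far the given libraries spread, and that spread may be technical. The comparisons ask how a first exposure changes the answer to the next one, with and without NSD2.

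Most TRIM proteins hold a RING domain that passes on ubiquitin, B-box zinc fingers and a coiled coil, and many of them restrict viruses or tune the signals that viral RNA and DNA set off. PML bodies are nuclear spots built on SUMO-modified PML protein, which gathers Sp100, Daxx and other proteins and is known to silence viral DNA. Interferon beta acts through its receptor on transcription factors that bind interferon-stimulated response elements in promoters, and TRIM and PML body genes are well-known targets of this route.

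Promoter sequences are shown for the member with the strongest rise in WT cells (Trim21), for another with the response element letters (Trim26) and for the one with the widest gap between genotypes (Trim25). RefSeq windows of 300 bases, 250 before to 50 after the gene start on GRCm38.p6, matched 6 of the 7 genes, all but Trim14, with 2 windows for Sp100. The counts themselves were made on mm9, so these coordinates are not those of the counts. Capitals mark the response element letters, GAAA then any 2 bases then GAAA, read on both strands, and overlapping matches run together.
Trim21 (chr7:102565433-102565732, minus strand): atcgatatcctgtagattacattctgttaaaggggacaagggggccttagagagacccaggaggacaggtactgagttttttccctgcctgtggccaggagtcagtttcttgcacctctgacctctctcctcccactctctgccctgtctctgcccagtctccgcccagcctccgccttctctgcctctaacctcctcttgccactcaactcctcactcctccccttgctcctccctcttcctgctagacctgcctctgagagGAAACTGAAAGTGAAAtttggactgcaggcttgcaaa
Trim26 (chr17:36836896-36837195, plus strand): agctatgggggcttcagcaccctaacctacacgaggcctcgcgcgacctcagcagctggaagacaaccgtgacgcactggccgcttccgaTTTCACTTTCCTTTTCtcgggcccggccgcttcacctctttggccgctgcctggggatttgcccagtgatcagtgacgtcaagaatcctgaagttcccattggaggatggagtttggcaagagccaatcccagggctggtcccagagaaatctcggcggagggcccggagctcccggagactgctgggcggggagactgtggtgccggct
Trim25 (chr11:88999153-88999452, plus strand): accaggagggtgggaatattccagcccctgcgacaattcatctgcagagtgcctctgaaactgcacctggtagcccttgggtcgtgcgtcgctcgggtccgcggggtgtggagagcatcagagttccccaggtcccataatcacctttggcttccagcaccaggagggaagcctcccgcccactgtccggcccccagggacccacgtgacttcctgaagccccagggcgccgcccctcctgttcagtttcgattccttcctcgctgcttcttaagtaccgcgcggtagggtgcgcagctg
Trim21 held 2 overlapping matches on the gene's strand, from base 14 to base 29 after the start. Trim26 held 2 on the opposite strand, from base -160 to base -145. The other 4 genes with a window, Trim25, Trim56, Pml and Sp100, held none, and among all 32851 windows of this length 3.44% held at least 1. The letters of the gamma-activated site, TTC then any 3 bases then GAA, occurred in none of the members' windows and in 8.3% of all windows. A match is a description of the letters and does not show a site in use.

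Between 17170845 and 44116418 reads per library were counted in genes. From 10.6% to 29.4% of these fell on Rn45s, a ribosomal RNA precursor, and Lars2. The share was lowest in WT naive 0 h replicate 1, whose CPM (counts scaled to the total of gene counts) ran high for the other genes and came to 0.82 times as much after TMM scaling, edgeR's correction for such composition. Levels below are plain CPM, and changes are log2 values ± SE fitted on TMM-scaled counts. Whsc1, the older symbol of Nsd2, was still counted at 91.5 to 123.9 CPM in KO libraries and at 105.5 to 150.7 CPM in WT libraries, with a log2 difference of -0.18 ± 0.047 at naive 0 h (adjusted p = 0.0013). Counts for the gene as a whole cannot show whether some of its exons were deleted, so KO and WT are used here as the labels give them. All 10 fibroblast markers were in the files, and they summed to 11120 to 13950 CPM in KO and 12630 to 20300 CPM in WT. Lymphocyte markers summed to at most 0.344 CPM in KO and 0.6999 CPM in WT, and endothelial markers to at most 1.335 CPM in KO and 1.78 CPM in WT.

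In naive KO cells, 2 h of interferon raised every one of the 7 genes, by log2 changes from 1.01 for Pml to 4.69 for Trim21. In naive WT cells, 4 of the 7 rose, Trim21, Trim26, Trim56 and Sp100, and of these Trim21 rose by a log2 change of 2.77 and the other 3 by 0.32 to 0.70. Trim14, Trim25 and Pml were not called in WT, and none of the 7 fell in either genotype. Among all 13802 genes tested, edgeR's quasi-likelihood test, with a call at Benjamini-Hochberg adjusted p below 0.05, called 19.1% higher in KO and 15% higher in WT. The median log2 change of the 7 genes was 3.23 in KO and 0.32 in WT, against -0.013 and -0.018 over all tested genes. KO naive 2 h is 1 library, taken to vary as much as the rest of the groups do. That library had the lowest fibroblast marker sum of all, 11120 CPM against 13380 to 13950 CPM at KO naive 0 h, and WT libraries had 15150 to 15940 CPM at naive 2 h against 16220 to 20300 CPM at naive 0 h. The 6 epithelial markers summed to 5.03 CPM at KO naive 2 h against 2.504 to 3.19 CPM at KO naive 0 h, and to 3.18 to 3.72 CPM at WT naive 2 h against 1.11 to 1.32 CPM at WT naive 0 h, with Epcam at 0 in these groups. Their part in the changes below was not tested. In such bulk RNA, fewer responding cells and less RNA per cell cannot be told apart.

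**Figure D1:**
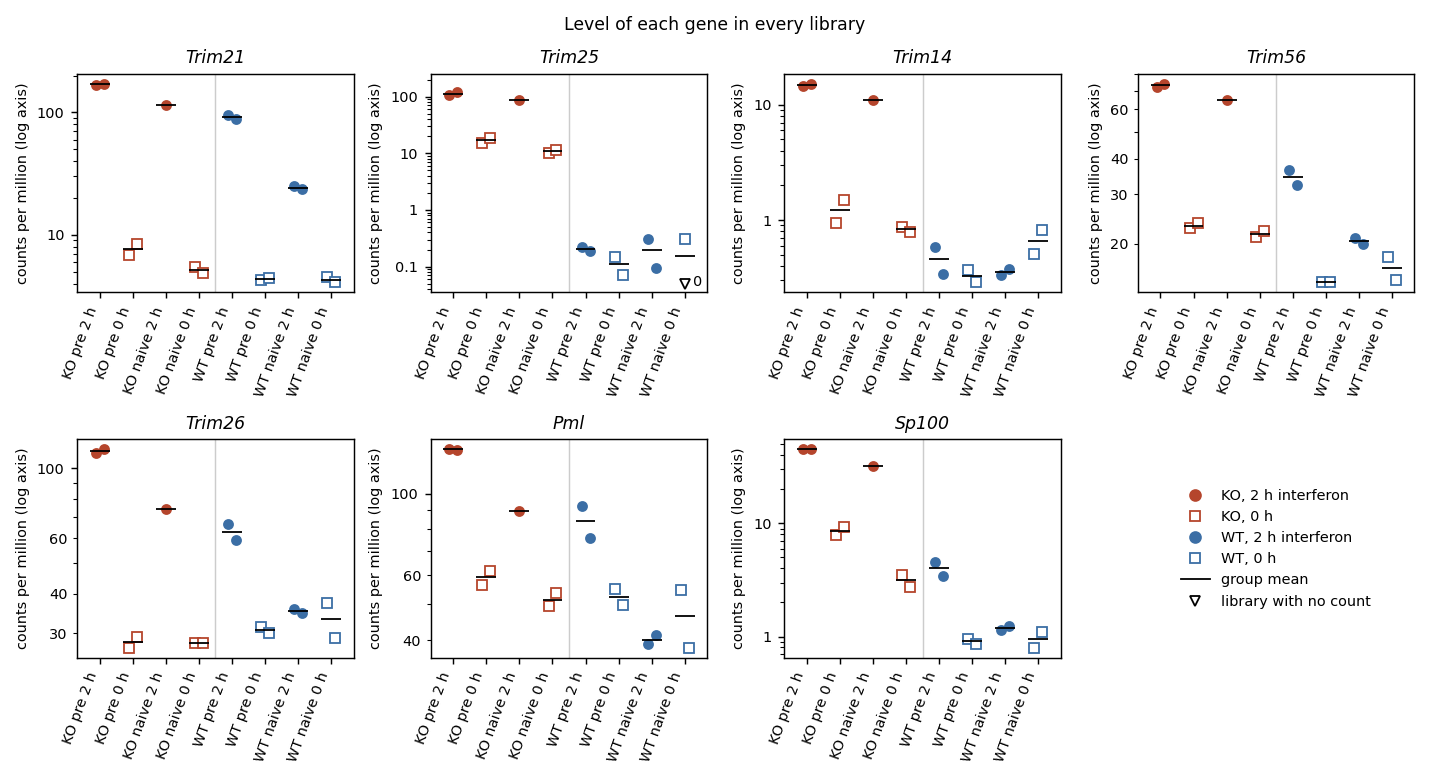
Level of each gene in CPM (log axis) in every library, with KO groups left of WT groups, filled circles for 2 h of interferon, open squares for 0 h and black lines for group means; pre stands for pretreated. Trim25 lies between 10.2 and 120.1 CPM in KO libraries and at or below 0.312 CPM in WT libraries, where the triangle marks a library with no count.

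Trim21 is a ubiquitin ligase that binds antibody-coated virus in the cytosol. It stood at 114 CPM in the KO library at naive 2 h, against 5.47 and 4.88 CPM at naive 0 h, and at 25.0 and 23.5 CPM in WT at 2 h, against 4.50 and 4.08 CPM at 0 h. The groups did not overlap in either genotype. The log2 change was 4.69 ± 0.080 in KO (adjusted p = 2.7e-28) and 2.77 ± 0.091 in WT (adjusted p = 1.5e-20).

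Trim25, known as a ubiquitin ligase for the RNA sensor RIG-I and as a partner of the zinc finger antiviral protein ZAP, stood at 88.1 CPM in KO at 2 h, against 10.2 and 11.4 CPM at 0 h. Its log2 change in KO was 3.23 ± 0.098 (adjusted p = 6.7e-22). In WT it was close to absent, with 10 and 2 counts in the 2 libraries at 2 h and 13 and 0 counts at 0 h, and the library with 0 counts allows up to 0.175 CPM at a limit of 3 counts. The WT groups overlapped, and the fitted change of 0.29 ± 0.65 (adjusted p = 0.78) rests on these few counts.

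Trim14 is a family member without a RING domain that in human cells docks at the mitochondrial adaptor MAVS. It reached 11.02 CPM in KO at 2 h, against 0.876 and 0.797 CPM at 0 h, whereas WT held 0.333 and 0.379 CPM at 2 h against 0.505 and 0.815 CPM at 0 h. In WT the 2 h libraries lay just below the 0 h libraries, on 8 to 21 counts of Trim14 per WT library. The log2 change was 3.94 ± 0.20 in KO (adjusted p = 5.2e-16), and in WT the value was -0.47 ± 0.42 (adjusted p = 0.42). Exons of Trim14 overlap those of Nans on the opposite strand, and the strand setting of the counting is not given in the sources used here. Nans itself ranged from 51.3 to 66.8 CPM in KO and from 52.2 to 64.7 CPM in WT.

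Trim56, a ubiquitin ligase that acts on viral RNA and in DNA sensing, stood at 64.8 CPM in KO at 2 h, against 21.0 and 22.2 CPM at 0 h, and at 21.0 and 19.9 CPM in WT at 2 h, against 17.9 and 14.8 CPM at 0 h. Neither pair of groups overlapped, and the log2 changes were 1.79 ± 0.071 in KO and 0.56 ± 0.073 in WT (adjusted p = 6.3e-19 and 4.5e-07). Trim26, a RING protein encoded in the major histocompatibility region, stood at 74.5 CPM in KO at 2 h, against 27.9 and 27.8 CPM at 0 h, and at 35.9 and 34.7 CPM in WT at 2 h, against 37.4 and 29.1 CPM at 0 h. The WT groups overlapped on this scale. With Rn45s and Lars2 left out of the totals they did not, at 49.2 and 46.3 CPM at 2 h against 41.9 and 39.1 CPM at 0 h. The fitted log2 change of Trim26 was 1.63 ± 0.064 in KO (adjusted p = 5.0e-19) and 0.32 ± 0.059 in WT (adjusted p = 8.6e-05).

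Pml encodes the protein on which the bodies are built. It stood at 89.5 CPM in KO at 2 h, against 49.4 and 53.6 CPM at 0 h, and its log2 change was 1.01 ± 0.070 (adjusted p = 6.3e-13). In WT the level was 38.9 and 41.2 CPM at 2 h against 54.7 and 38.1 CPM at 0 h, groups that overlapped, with a fitted value of 0.005 ± 0.065 (adjusted p = 0.97). Sp100, a repressor carried in the same bodies, stood at 31.9 CPM in KO at 2 h, against 3.51 and 2.765 CPM at 0 h, a log2 change of 3.60 ± 0.12 (adjusted p = 1.0e-20). WT held 1.15 and 1.23 CPM at 2 h against 0.793 and 1.11 CPM at 0 h, just apart, and the value of 0.70 ± 0.27 was called at adjusted p = 0.047. That WT call was lost without WT naive 0 h replicate 1 (log2 change 0.19, adjusted p = 0.78), without either WT naive 2 h library (adjusted p = 0.16 and 0.14), in a fit on the compared groups (0.088) and in DESeq2 (0.058). Partial copies of Sp100 lie on mouse chromosome 1, so its counts are uncertain where reads are shared.

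When the difference between the genotypes' naive responses was tested itself, the 6 genes other than Trim25 were called with the larger change in KO, where edgeR called 8.46% of all tested genes in that direction. The difference in log2 change was 4.42 ± 0.48 for Trim14 (adjusted p = 3.7e-08), 2.89 ± 0.32 for Sp100 (4.9e-08) and 1.93 ± 0.14 for Trim21 (9.6e-12). It was 1.31 ± 0.087 for Trim26, 1.23 ± 0.10 for Trim56 and 1.0 ± 0.095 for Pml (adjusted p = 1.5e-12 to 3.3e-09). For Trim25, which hardly had counts in WT, the value of 2.93 ± 0.70 (adjusted p = 0.0036) is given as a number only. Without WT naive 0 h replicate 1, which held all 13 counts of its group, this value was -2.57 with adjusted p = 0.62, so no direction is read from it.

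**Figure D2:**
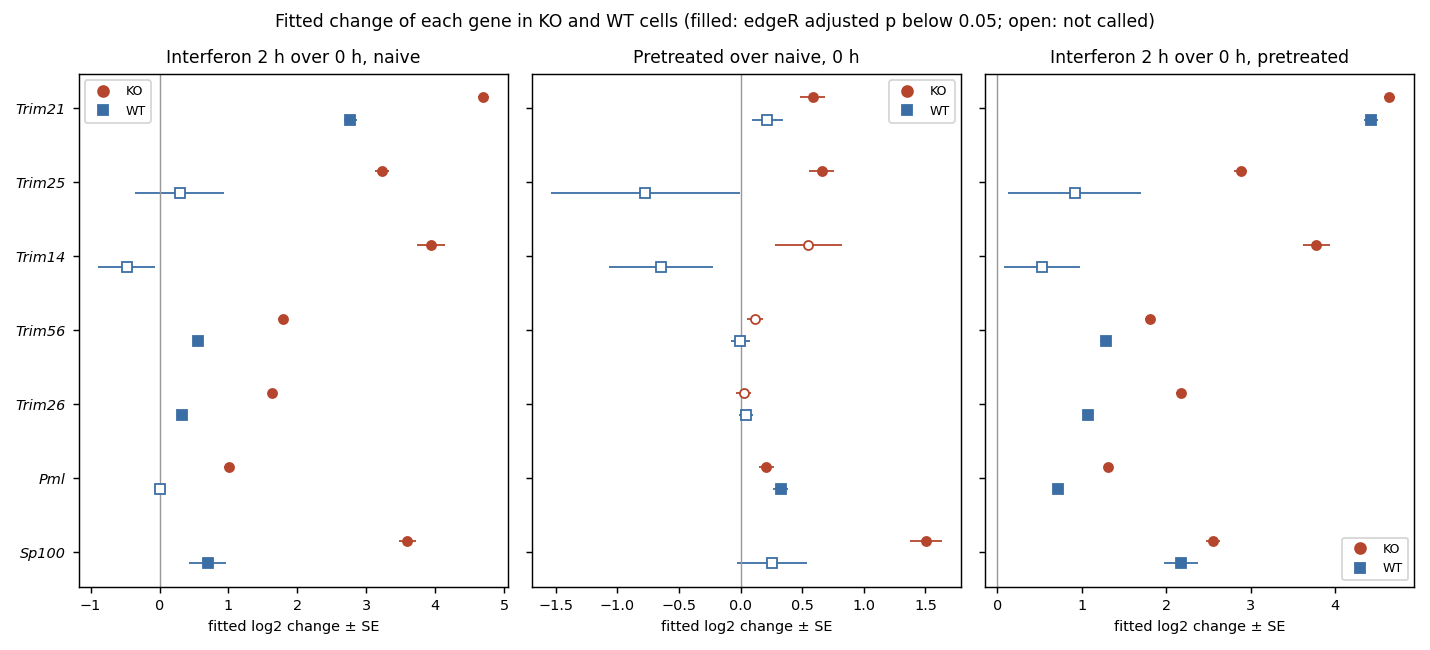
Fitted log2 change ± SE of each gene in KO (circles, above) and WT (squares, below) for interferon in naive cells, for pretreated over naive cells at 0 h, and for interferon in pretreated cells; filled symbols were called at adjusted p below 0.05. In naive cells the KO values lie between 1.01 and 4.69 and the WT values between -0.47 and 2.77.

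A day after the first exposure had ended, pretreated cells at 0 h were compared with naive cells at 0 h. In KO, 4 of the 7 genes stood higher, Sp100, Trim25, Trim21 and Pml, where 11.1% of tested genes were called higher. In WT, Pml alone of the 7 was called, where 12.6% of tested genes were higher, a share close to 1 of 7 members. No member was lower in either genotype. Sp100 had 7.90 and 9.34 CPM in KO pretreated cells, against 3.51 and 2.765 CPM in KO naive cells, and 0.958 and 0.864 CPM in WT pretreated cells, against 0.793 and 1.11 CPM in WT naive cells. The KO groups stood apart and the WT groups overlapped. The log2 change of Sp100 was 1.51 ± 0.13 in KO (adjusted p = 3.9e-10) and the WT value was 0.25 ± 0.28 (adjusted p = 0.58).

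Trim25 stood at 15.3 and 19.0 CPM in KO pretreated cells, against 10.2 and 11.4 CPM in naive cells (log2 change 0.66 ± 0.10, adjusted p = 1.4e-05). WT pretreated libraries held 4 and 2 counts of it. Trim21 stood at 6.84 and 8.43 CPM in KO pretreated cells, against 5.47 and 4.88 CPM in naive cells (0.59 ± 0.10, adjusted p = 8.8e-05). These KO groups did not overlap for either gene. In WT, Trim21 held 4.27 and 4.47 CPM against 4.50 and 4.08 CPM (0.22 ± 0.12, adjusted p = 0.23).

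Pml rose a little in both genotypes, by 0.21 ± 0.060 in KO (adjusted p = 0.011) and 0.33 ± 0.063 in WT (adjusted p = 0.00026). Its plain levels were 56.5 and 61.8 CPM against 49.4 and 53.6 CPM in KO, and 55.1 and 49.8 CPM against 54.7 and 38.1 CPM in WT. The WT groups overlapped on that scale. They were apart with Rn45s and Lars2 left out, at 74.2 and 68.3 CPM against 61.2 and 51.3 CPM. The KO call for Pml was lost without KO naive 0 h replicate 1 (adjusted p = 0.13) and without KO pretreated 0 h replicate 1 (adjusted p = 0.11). Trim56 and Trim26 moved by 0.12 ± 0.066 and 0.025 ± 0.059 in KO and by -0.001 ± 0.077 and 0.046 ± 0.059 in WT, none of them called. Trim14 was at 0.945 and 1.5 CPM in KO pretreated cells against 0.876 and 0.797 CPM in naive cells, which did not pass the test (0.55 ± 0.27, adjusted p = 0.16).

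Of the 7 genes, Sp100 was the one whose pretreatment effect differed between genotypes by the test of the difference, larger in KO by 1.25 ± 0.32 (adjusted p = 0.021), where 1.71% of tested genes were called in that direction. The call was lost without WT naive 0 h replicate 2 (difference 1.01, adjusted p = 0.15), KO naive 0 h replicate 2 (1.04, 0.11), WT pretreated 0 h replicate 1 (1.31, 0.056) or WT pretreated 0 h replicate 2 (1.21, 0.069).

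Restimulation of pretreated cells for 2 h raised all 7 genes in KO and 5 of 7 in WT, namely Trim21, Sp100, Trim56, Trim26 and Pml. Shares of 17.9% of tested genes in KO and 12.2% in WT were called higher. Trim21 reached 169 and 171 CPM in KO at 2 h, against 6.84 and 8.43 CPM at 0 h, and 95.2 and 87.65 CPM in WT at 2 h, against 4.27 and 4.47 CPM at 0 h. The log2 changes were 4.64 ± 0.067 in KO and 4.43 ± 0.078 in WT (adjusted p = 5.3e-30 and 4.8e-27). Here the difference between genotypes was 0.22 ± 0.12 and was not called (adjusted p = 0.37).

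Trim26 reached 112 and 115 CPM in restimulated KO cells, against 26.9 and 29.1 CPM at 0 h, and 66.6 and 59.3 CPM in WT, against 31.5 and 30.1 CPM. Its log2 change was 2.17 ± 0.053 in KO and 1.07 ± 0.056 in WT (adjusted p = 1.9e-24 and 1.1e-15). Trim56 reached 72.3 and 73.9 CPM in KO, against 22.7 and 23.7 CPM, and 36.5 and 32.4 CPM in WT, against 14.62 and 14.55 CPM. Its log2 change was 1.81 ± 0.059 in KO and 1.28 ± 0.070 in WT (adjusted p = 3.4e-21 and 3.4e-15). For both ligases the 2 h libraries stood above the 0 h libraries in each genotype.

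Trim14 reached 14.5 and 15.1 CPM in restimulated KO cells, against 0.945 and 1.5 CPM at 0 h, a log2 change of 3.78 ± 0.16 (adjusted p = 1.8e-18). WT held 0.585 and 0.339 CPM at 2 h against 0.368 and 0.288 CPM at 0 h, groups that overlapped (0.53 ± 0.45, adjusted p = 0.44). Trim25 reached 105.1 and 120.1 CPM in KO, against 15.3 and 19.0 CPM, a log2 change of 2.88 ± 0.080 (adjusted p = 6.1e-23). WT libraries held 6 and 5 counts of Trim25 at 2 h and 4 and 2 counts at 0 h.

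The body genes rose in both genotypes on restimulation. Pml stood at 131.9 and 131.7 CPM in KO at 2 h, against 56.5 and 61.8 CPM at 0 h, and at 92.45 and 75.8 CPM in WT at 2 h, against 55.1 and 49.8 CPM at 0 h. The log2 changes were 1.31 ± 0.056 in KO and 0.72 ± 0.060 in WT (adjusted p = 3.1e-18 and 6.3e-11). Sp100 stood at 45.15 and 45.0 CPM in KO, against 7.90 and 9.34 CPM, and at 4.6 and 3.43 CPM in WT, against 0.958 and 0.864 CPM. Its log2 changes were 2.55 ± 0.086 and 2.18 ± 0.20 (adjusted p = 9.0e-21 and 1.0e-09), and 2 h and 0 h libraries did not overlap for either body gene in either genotype.

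Under restimulation, 4 of the 7 genes had a larger change in KO than in WT by the test of the difference, where 6.53% of tested genes were called in that direction. These were Trim14 (3.25 ± 0.54, adjusted p = 7.6e-05), Trim26 (1.10 ± 0.077, adjusted p = 1.2e-11), Pml (0.60 ± 0.082, adjusted p = 3.8e-06) and Trim56 (0.53 ± 0.093, adjusted p = 0.00014). The values for Trim21 (0.22 ± 0.12), Sp100 (0.375 ± 0.25) and Trim25 (1.97 ± 0.92) did not pass (adjusted p = 0.23 to 0.48).

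The levels reached at 2 h were then compared between pretreated and naive cells. In WT, 5 of 7 genes stood higher at 2 h in pretreated than in naive cells, where 13.2% of tested genes were called higher. Trim21 stood at 91.4 ± 5.31 CPM in WT pretreated cells at 2 h, against 24.2 ± 1.10 CPM in WT naive cells at 2 h (SD, n = 2 each), a log2 change of 1.88 ± 0.059 (adjusted p = 5.7e-20). The others were Sp100 (1.73 ± 0.19), Pml (1.04 ± 0.062), Trim26 (0.80 ± 0.055) and Trim56 (0.72 ± 0.067), with adjusted p = 6.8e-14 to 4.9e-08. For the genes called, the pretreated libraries lay above the naive ones without overlap, which describes 2 libraries a side and is no further test. Trim14 and Trim25 gave 0.36 ± 0.45 and -0.15 ± 0.67 in WT and were not called.

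In KO the second level was also higher for 5 of 7 genes, where 11.2% of tested genes were called higher. These included Trim25 in place of Trim56. For Trim21, Sp100, Pml and Trim26 the fitted changes were smaller than in WT. Trim26 stood at 113.3 ± 2.27 CPM in KO pretreated cells at 2 h (SD, n = 2), against 74.5 CPM in the naive 2 h library, a log2 change of 0.565 ± 0.061 (adjusted p = 8.3e-08). Trim21 gave 0.535 ± 0.061, Pml 0.52 ± 0.068, Sp100 0.46 ± 0.093 and Trim25 0.31 ± 0.085 (adjusted p = 2.7e-07 to 0.0097). Trim56 gave 0.13 ± 0.066 and Trim14 0.39 ± 0.14, neither of them called (adjusted p = 0.17 and 0.050). The call for Trim25 was lost without KO pretreated 2 h replicate 2 (adjusted p = 0.12), and Trim14 was called in the fit with no filter (0.026), in the fit on the compared groups (0.0055) and without the 3 libraries lowest in Rn45s and Lars2 (0.025). No test compared the genotypes here.

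The response itself, and not only its end level, was larger in pretreated than in naive WT cells for 5 of 7 genes, where 1.63% of tested genes were called in that direction. The difference between the 2 responses was 1.66 ± 0.14 for Trim21 (adjusted p = 1.8e-09), 1.47 ± 0.35 for Sp100 (0.013), 0.75 ± 0.081 for Trim26 (2.1e-07), 0.72 ± 0.10 for Trim56 (2.1e-05) and 0.71 ± 0.088 for Pml (2.2e-06). The call for Sp100 was lost without WT naive 2 h replicate 1 (difference 1.43, adjusted p = 0.072) and without WT naive 0 h replicate 2 (1.23, adjusted p = 0.088). Trim14 (1.01 ± 0.61) and Trim25 (0.62 ± 1.02) did not pass (adjusted p = 0.56 and 0.90). This comparison shares its libraries with the WT comparisons above.

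**Figure D3:**
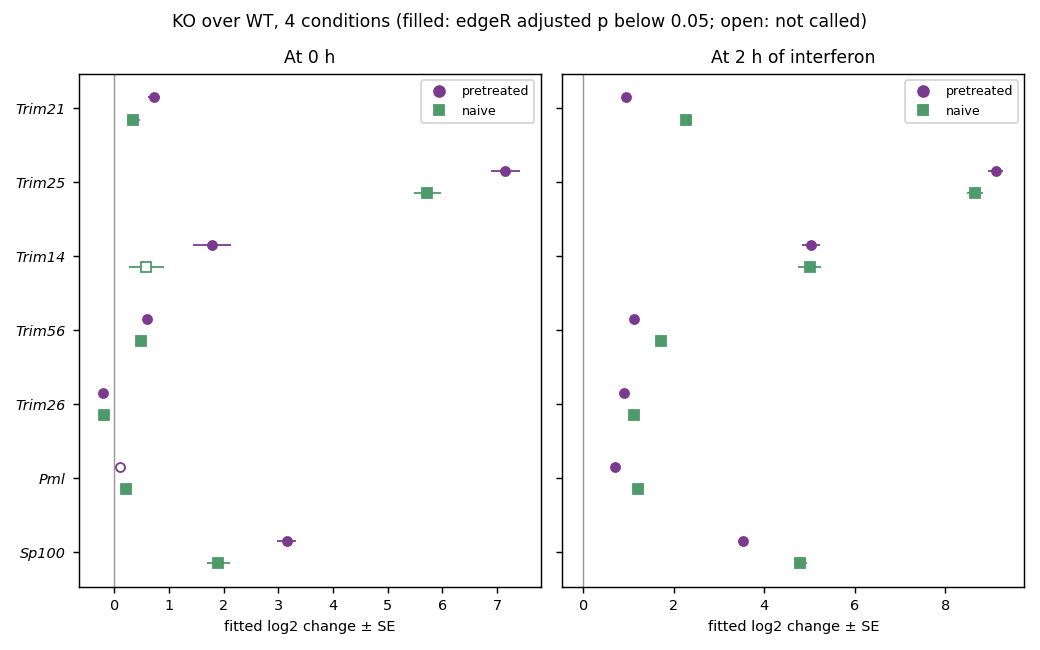
Fitted log2 difference ± SE of KO over WT for each gene at 0 h (left) and at 2 h of interferon (right), with circles for pretreated and squares for naive cells; filled symbols were called at adjusted p below 0.05. At 2 h all values lie above 0, between 0.69 and 9.12 with Trim25 the largest, and Trim26 lies at -0.21 and -0.19 at 0 h. Trim25 passed the filter only through KO libraries, so its filled symbols are no test.

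Set directly against WT, KO cells held more of 5 of the 7 genes and less of Trim26 at naive 0 h, where the 5 were Trim21, Trim25, Trim56, Pml and Sp100. At pretreated 0 h Trim26 was again lower, and 5 were higher, with Trim14 among them (1.78 ± 0.35, adjusted p = 6.0e-05) and Pml not. At 2 h all 7 were higher in KO in both naive and pretreated cells. Trim25 is among these counts although it passed the filter only through KO libraries, where it is high, and so had to differ. KO and WT differed widely across the genome, so such a call says little by itself. The share of tested genes called higher in KO was 34.3% at naive 0 h, 32.3% at naive 2 h, 32.8% at pretreated 0 h and 35.6% at pretreated 2 h, and at 0 h 32.7% were lower in naive and 31.8% in pretreated cells. Macrophage and blood markers, of which 9 of 10 were in the files, summed to 5.27 to 9.04 CPM in KO and 13.7 to 21.1 CPM in WT, with Emr1 and Aif1 at 0 in every group; their part in these differences was not tested. Trim25 stood apart in all 4 conditions, with 10.2 to 120.1 CPM in the 7 KO libraries, against 0 to 0.312 CPM in the 8 WT libraries, which together held 42 counts of it. The log2 difference was 5.72 ± 0.24 at naive 0 h, 8.66 ± 0.19 at naive 2 h, 7.15 ± 0.26 at pretreated 0 h and 9.12 ± 0.17 at pretreated 2 h. Because of the filter, these Trim25 values describe its levels and carry no test. The naive 0 h value rests on the 13 counts of WT replicate 1: fitted without that library, against 0 counts in WT, it was 11.22, which depends on the fit's prior count and is no bound. Sp100 differed by 1.90 ± 0.21, 4.79 ± 0.15, 3.15 ± 0.17 and 3.53 ± 0.10 in the same conditions (adjusted p = 7.2e-23 to 3.7e-09).

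Trim14 was close between genotypes before interferon, at 0.876 and 0.797 CPM in KO naive 0 h and 0.505 and 0.815 CPM in WT naive 0 h (0.58 ± 0.33, adjusted p = 0.11). The groups overlapped, and the value was -0.06 without WT naive 0 h replicate 1 and 0.91 with a call (adjusted p = 0.029) without WT naive 0 h replicate 2. At 2 h it was higher in KO by 5.0 ± 0.25 in naive and 5.03 ± 0.20 in pretreated cells (adjusted p = 7.7e-17 and 2.1e-19). Trim56 was higher in KO in each condition, by 0.48 ± 0.071 at naive 0 h, 1.71 ± 0.073 at naive 2 h, 0.59 ± 0.072 at pretreated 0 h and 1.12 ± 0.058 at pretreated 2 h (adjusted p = 1.8e-18 to 9.4e-07). Trim21 was higher in KO by 0.35 ± 0.12, 2.275 ± 0.067, 0.72 ± 0.11 and 0.93 ± 0.050 in the same order (adjusted p = 1.6e-22 to 0.011). The naive 0 h call for Trim21 was lost without WT naive 0 h replicate 1 (adjusted p = 0.25) and without KO naive 0 h replicate 1 (0.078).

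Trim26 was the member whose genotype difference changed sign with interferon. It was lower in KO at naive 0 h by -0.19 ± 0.059 (adjusted p = 0.0055) and at pretreated 0 h by -0.21 ± 0.059 (adjusted p = 0.0025). It was higher in KO at 2 h by 1.12 ± 0.064 in naive and 0.89 ± 0.049 in pretreated cells (adjusted p = 2.0e-15 and 8.7e-16). The naive 0 h call was lost without WT naive 0 h replicate 1 (-0.14, adjusted p = 0.15). Pml was higher in KO by 0.21 ± 0.062 at naive 0 h (adjusted p = 0.0039), 1.21 ± 0.072 at naive 2 h and 0.69 ± 0.055 at pretreated 2 h (adjusted p = 5.5e-15 and 4.0e-12), and gave 0.095 ± 0.060 at pretreated 0 h (adjusted p = 0.17). The naive 0 h call for Pml was lost without WT naive 0 h replicate 2 (0.12, adjusted p = 0.10) or KO naive 0 h replicate 2 (0.15, adjusted p = 0.091).

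All 7 genes were highest in restimulated KO cells and next highest in the KO naive 2 h library, followed in the cases of Trim21, Trim26, Trim56 and Pml by restimulated WT cells. For Trim14 and Trim25 every KO group mean lay above every WT group mean, and the 4 WT groups were not separated from their neighbours in this order. KO naive 0 h and WT naive 0 h overlapped for Trim14. Sp100 ranked KO pretreated 0 h cells, at 8.62 ± 1.02 CPM (SD, n = 2), above restimulated WT cells, at 4.02 ± 0.829 CPM (SD, n = 2). For Pml the KO naive 2 h library, at 89.5 CPM, lay within the range of restimulated WT cells, but with Rn45s and Lars2 left out it stood above them, at 126 CPM against 113 and 107 CPM. Trim26 and Pml had their lowest levels in different genotypes, Trim26 in the KO groups at 0 h and Pml in WT naive 2 h cells, each overlapping the next group in the order. The mean log2 CPM of the members over the 8 groups correlated between 0.482 for Trim21 with Trim25 and 0.951 for Trim21 with Trim26, values that share libraries and scaling and carry no test.

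The genes of most similar pattern were taken as those with the highest Pearson r of mean log2 CPM over the 8 groups, a measure that takes no account of the size of a change. For Trim21 they were Trex1, which degrades cytosolic DNA (r = 0.994), Ifit1, whose product binds viral RNA (0.992), and Irgm1 (0.991). For Sp100 they included Gm7609 (0.993) and Uba7, the activating enzyme of ISG15 conjugation (0.992). Trim56 was most like Tor1aip2 (0.997), Tap1, a peptide transporter of class I presentation (0.997), and Gm12185 (0.996). Trim26 was most like Pcgf5 (0.998), Il1rap (0.997) and Fam208b (0.995), and Pml most like Oas3 (0.985), Kat6a (0.982) and Hes1 (0.979). Trim25 was most like Ms4a4d (0.997), Slc12a2 (0.996) and the class I gene H2-K1 (0.996), and Trim14 most like Ncoa7 (0.994), Mpeg1 (0.991) and Hdc (0.990).

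Other TRIM genes did not respond as a block. The 7 members were chosen with earlier results of these data known, so setting them against this list of other TRIM genes is no test. Of 61 counted, 43 passed the filter. In naive KO cells 11 of these rose and 16 fell, and in naive WT cells 9 rose and 13 fell, where 19.1% of all tested genes in KO and 15% in WT were higher and 17.2% in KO and 15.6% in WT were lower. Their median log2 change was -0.10 in KO and -0.096 in WT. Those that rose in both genotypes were Trim12a, Trim12c, Trim16, Trim30a, Trim30d, Trim34a and Trim47, and others fell in both. Trim30a gave 4.13 ± 0.10 in KO and 1.84 ± 0.17 in WT (adjusted p = 2.5e-24 and 8.3e-10), and Trim12c gave 3.17 ± 0.11 and 1.32 ± 0.13 (3.0e-20 and 1.5e-09). The Trim12, Trim30 and Trim34 genes are close copies of each other, so reads they share leave their counts uncertain. Trim16 and Trim47 rose by 0.49 ± 0.075 and 0.36 ± 0.064 in KO and by 0.71 ± 0.059 and 0.60 ± 0.056 in WT. In the test of the genotype difference the log2 change was higher in KO than in WT for 7 of the 43 and lower for 4. Over all tested genes it was higher in KO for 8.46% and lower for 6.85%. These differences are signed, so a lower value in KO can be a deeper fall in KO or a smaller rise. On restimulation the log2 change was higher in KO for 1 of the 43 and lower for 6 by the same signed test. Over all tested genes it was higher in KO for 6.53% and lower for 2.51%. Trim12c rose by 2.16 ± 0.085 in KO and 2.70 ± 0.11 in WT, a difference of -0.545 ± 0.15 (adjusted p = 0.015). Without interferon, at naive 0 h, 13 of the 43 were higher and 11 lower in KO than in WT, no more than the shares of 34.3% and 32.7% over all tested genes. Among them were Mid2, lower by -1.80 ± 0.077 (adjusted p = 1.7e-18), Trim8, higher by 0.998 ± 0.058 (2.2e-15), and Trim6, lower by -2.69 ± 0.23 (1.5e-11).

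**Figure D4:**
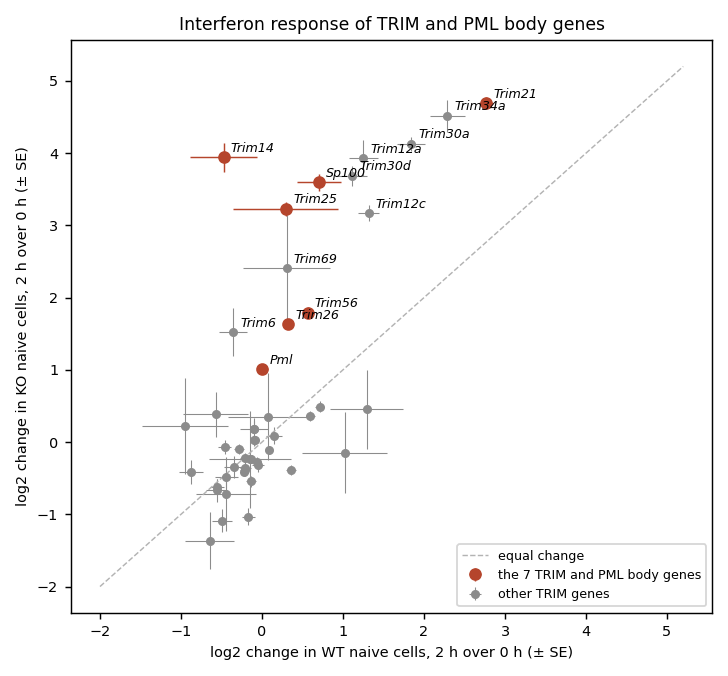
Fitted log2 change ± SE after 2 h of interferon in naive KO cells (vertical axis) against that in naive WT cells (horizontal axis) for the 7 genes in red and 41 other TRIM genes in grey; the dashed line marks equal change, and 2 other TRIM genes with 3 or fewer counts in a compared group are not drawn. The 7 genes lie above the line, Trim21 at 4.69 in KO and 2.77 in WT.

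Among 29 other genes of PML bodies and the SUMO pathway, all measured, 11 rose and 3 fell in naive KO cells and 6 rose and 2 fell in naive WT cells, where over all tested genes 19.1% rose and 17.2% fell in KO and 15% rose and 15.6% fell in WT. Daxx, the histone chaperone held in the bodies, rose by 2.94 ± 0.057 in KO and 0.615 ± 0.057 in WT (adjusted p = 6.9e-27 and 5.4e-10). The difference of 2.325 ± 0.081 was called (adjusted p = 4.5e-19). Sp140 and Sp110, relatives of Sp100 that lie next to it in RefSeq gene order, rose in KO by 3.60 ± 0.15 and 3.41 ± 0.20 (adjusted p = 1.2e-18 and 1.4e-14). On restimulation Daxx rose by 3.43 ± 0.050 in KO and 2.02 ± 0.053 in WT, and 10 of the 29 rose in KO and 11 in WT, where 17.9% of all tested genes rose in KO and 12.2% in WT. Its response was larger in pretreated than in naive WT cells by 1.405 ± 0.078 (adjusted p = 5.2e-13), as it was for Pml and Sp100. In pretreated cells at 0 h 7 of the 29 were higher than in naive cells in each genotype. Over all tested genes 11.1% were higher in KO and 12.6% in WT. By the test of the difference, none of the 29 had a higher pretreatment change in KO than in WT, where 1.71% of all tested genes did. For 1 of them, the kinase gene Hipk2, the change was lower in KO (difference -0.44 ± 0.12, adjusted p = 0.030), where 1.51% of all tested genes were called in that direction. Hipk2 fell in KO by -0.39 ± 0.090 (adjusted p = 0.0021).

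Of 16 nucleic acid sensing genes, whose products TRIM proteins are known to act on or with, 10 rose and 1 fell in naive KO cells, and 5 rose and 4 fell in naive WT cells, against the same all-gene shares of 19.1% and 17.2% in KO and 15% and 15.6% in WT. Ddx58, which encodes RIG-I, the known substrate of Trim25, rose by 3.93 ± 0.068 in KO and 1.68 ± 0.066 in WT (adjusted p = 4.6e-28 and 1.5e-18), so that in WT it rose where Trim25 was at or below 0.312 CPM. Zc3hav1, which encodes ZAP, rose in WT by 0.61 ± 0.053 (adjusted p = 2.2e-10) and by 1.34 ± 0.080 more in KO (1.2e-13). Of 10 interferon receptor and signalling genes, 7 rose in naive KO and 6 in naive WT cells and none fell, where 19.1% and 15% of all tested genes rose. Irf9 rose in WT by 2.97 ± 0.090 and Stat2 by 2.29 ± 0.076 (adjusted p = 2.4e-21 and 1.8e-20). At naive 0 h, 8 of these 10 were higher in KO, where 34.3% of all tested genes were, with Irf9 higher by 1.98 ± 0.095 and the receptor chain gene Ifnar1 by 0.66 ± 0.048 (adjusted p = 2.9e-17 and 5.8e-13).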

How the data were processed

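The labels' protocols name TRIzol extraction, the NuGEN Ovation SP Ultralow kit and HiSeq2000 read pairs. What was deposited was 1 file of whole-number read counts by gene symbol for every library. The submitters' processing notes list bcl2fastq 2.15, STAR 2.5.2b, HTSeq and mm9; no annotation, strand setting or filter was found in the sources used here. HTSeq's 5 summary lines were dropped; reads in no gene were 35.1% to 41.3% of the uniquely aligned reads. Replicates differed beyond sampling noise in every pair (chi-square over its degrees of freedom, 1.97 to 5.11 with Rn45s and Lars2 left out).

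CPM are counts scaled to the sum of gene counts. Whether the libraries of compared groups overlapped is told as a description of each gene. With at most 2 libraries per group it is weak, and the share of all genes without overlap was not counted. Changes came from edgeR 4.0.16 (R 4.3.3; quasi-likelihood test; TMM; filterByExpr, minimum count 10), fitted once to 8 groups in 15 libraries with 7 residual degrees of freedom, for 16 comparisons over 13802 genes. The members and lists were chosen with earlier results of these data known. From each list and comparison, the called genes of smallest p could be named, up to 3; Nans, the roster of TRIM genes higher in both genotypes, and values of a listed gene in other comparisons were picked after their values were seen. Likeness used log2 CPM with a prior count of 2. Some genes that these rules take are left out of the text. The alternatives changed the size factors (RLE), the filter (none), the tool (DESeq2 1.42.0), the libraries in the fit (the compared groups alone, each library left out, or the 3 poorest in Rn45s and Lars2 left out), the block (replicate number) and the genes (Rn45s and Lars2 left out). The floor for a count of 0 covers counting error only. RefSeq promoters and GENCODE exon overlaps are on GRCm38.p6. Figures were drawn with matplotlib 3.10.9.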

Additional observations from a re-analysis of the deposited data

Results flagged for a closer look

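Each value here is a difference between 2 responses that passed the test of that difference, as edgeR's quasi-likelihood test gave it. The response to 2 h of interferon in naive cells was larger in KO than in WT for 6 genes, by log2 values of 4.42 for Trim14, 1.93 for Trim21, 1.31 for Trim26, 1.23 for Trim56, 1.0 for Pml and 2.89 for Sp100. Each of these uses the single KO naive 2 h library. Trim25 also passed the threshold, at 2.93, but rests on 0 to 13 counts per WT library and gave -2.57 without WT naive 0 h replicate 1, so no direction is read from it. After restimulation of pretreated cells the KO response exceeded the WT response by 3.25 for Trim14, 1.10 for Trim26, 0.53 for Trim56 and 0.60 for Pml. The effect of pretreatment at 0 h was larger in KO for Sp100, by 1.25, a call lost in 4 of the fits with 1 library left out.

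Within WT, the response of pretreated cells exceeded that of naive cells by 1.66 for Trim21, 0.75 for Trim26, 0.72 for Trim56, 0.71 for Pml and 1.47 for Sp100. The call for Sp100 was lost in 2 of the fits with 1 library left out.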

How the results depend on the processing

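The count of the 7 genes called in each of the 16 comparisons stayed within 1.5 times under the alternatives run on all libraries. Of the values of single genes in the alternatives, 883 of those called kept direction and call, 22 lost the call and 2 changed sign; among those not called, 349 stayed, 4 became called and 22 changed sign.

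Without the 3 libraries low in Rn45s and Lars2, the genes called moved by more than 1.5 times in 3 comparisons, to 2172 against 3307 for WT pretreated over naive at 0 h, 219 against 445 for the genotype difference of that effect, and 733 against 1247 for the genotype difference of restimulation. DESeq2 called 1724 genes between KO pretreated and naive cells at 2 h, against 2598 with edgeR. With each library left out in turn, the genes called were 2737 to 3616 (of 4228) for WT interferon, 2076 to 2531 for WT and 1898 to 2167 (of 2996) for KO pretreated over naive at 0 h, 262 to 423 for their difference, 2278 to 2954 (of 3447) for WT and 1674 to 2148 for KO pretreated over naive at 2 h, and 256 to 398 (of 420) for the difference between WT pretreated and naive responses. Of the 7 genes, 0 to 1 were then called for the genotype difference of the pretreatment effect. Such fits hold fewer libraries.

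Some values changed sign. Those of Trim25 rest on 0 to 13 counts per WT library. They ran from -0.91 to 5.79 for WT interferon, from -2.57 to 4.14 for its genotype difference, from -1.33 to 4.73 for WT pretreated over naive at 0 h, from -4.07 to 1.99 for the genotype difference of that, from -0.61 to 1.06 for WT at 2 h and from -4.88 to 1.83 for the difference between WT responses when 1 library was left out. Without the 3 libraries Trim25 gave -2.57 for the genotype difference of interferon, 4.72 for WT and -4.11 for the genotype difference in pretreated over naive cells at 0 h, and -4.89 for the difference between WT responses. Near 0, Pml in WT interferon gave -1.1e-03 without the filter and -0.09 to 0.16 with 1 library left out. At 0 h, pretreated over naive, Trim56 in WT gave 3.9e-04 with the replicate block and -0.02 to 0.02, Trim26 gave -0.02 to 0.06 in KO and -0.08 to 0.02 for the genotype difference, and Sp100 in WT gave -0.26 without the 3 libraries and -0.26 to 0.49. Trim14 in KO against WT at naive 0 h was -0.06 without the 3 libraries and -0.06 to 0.91. The cause was not tested.

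Deviations of same-numbered libraries correlated above 0.1 in 5 of 21 pairs of groups, with r from -0.115 to 0.196. These values do not settle whether the replicate numbers pair the libraries. A replicate block left every call of the 7 genes as it was, and it raised the number of all genes called in every comparison. It gave 4524 against 4228 genes for WT interferon and 2486 against 2113 for its genotype difference. For the genotype difference of the pretreatment effect it gave 649 against 445 genes. Of the genes called, 48.9% were higher in WT interferon, against 60.3% in DESeq2, and 53.6% in WT restimulation, against 65.1% in DESeq2 and 63.9% without Rn45s and Lars2. No scaling moved the median of all genes by more than 0.031. Depth limits Trim25 and Trim14 in WT most.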

Other observations

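The genes next to Trim25 and Trim14 in RefSeq order were looked at after the levels of both genes had been seen, and their values are given without a further test. Next to Trim25, Scpep1 ranged from 177 to 247 CPM in KO and from 155 to 253 CPM in WT, and Coil, which encodes the marker protein of Cajal bodies, from 11.8 to 15 CPM in KO and from 10.6 to 15.1 CPM in WT. Dgke, a diacylglycerol kinase gene, rose with interferon in naive cells by a log2 change of 1.64 ± 0.091 in KO and 0.40 ± 0.086 in WT (edgeR adjusted p = 2.9e-15 and 0.00052). On restimulation it rose by 1.44 ± 0.075 in KO and 0.67 ± 0.080 in WT (adjusted p = 4.2e-16 and 1.3e-07). Nog, which encodes the BMP antagonist noggin, differed in the direction opposite to Trim25, at 0 to 0.159 CPM in KO and 2.27 to 3.47 CPM in WT.

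Next to Trim14, Coro2a stood at 1.3 to 2.69 CPM in KO and at 0 to 0.0377 CPM in WT. In KO it was not called for interferon (0.24 ± 0.32, edgeR adjusted p = 0.60). Its WT value of 0.33 ± 1.69 rests on levels near 0 and could not have been called, so it is given as a number only. Anp32b, also beside Trim14, ranged from 27.3 to 33.5 CPM in KO and from 21.2 to 29.5 CPM in WT.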
